A study of Mus musculus with 12 samples.

Results

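The 10 genes described here are the fibroblast growth factors Fgf1, Fgf2, Fgf7, Fgf9, Fgf10 and Fgf18, their receptors Fgfr1 and Fgfr2, hepatocyte growth factor Hgf and its receptor Met. They were taken by gene symbol from the 27998 genes counted in every library, and all 10 were found. Most FGFs are secreted proteins that bind receptor tyrosine kinases together with heparan sulfate. HGF is secreted by stromal cells as an inactive precursor that proteases activate before it binds MET. In the mammary gland, FGF10 and FGF7 from the stroma bind the epithelial splice form of FGFR2, and HGF from the stroma is known to promote branching of the ducts. A bound receptor starts the ERK cascade, whose output includes ETV transcription factors and inhibitors such as sproutys and DUSP6.

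The libraries held cells of the fourth mammary glands of C57BL/6J mice at 43 weeks of age, with lymph nodes removed, sequenced as single cells from their 3′ ends in droplets. All groups but Intact had received 4-vinylcyclohexene diepoxide (VCD, 160 mg/kg per day for 15 days), which destroys small ovarian follicles and serves as a model of menopause. Estradiol was given to VCD_E2 at a daily 1 µg per animal over 1 week, VCD_E2_P4 received in addition 1 mg of progesterone daily, and VCD_E2_ICI 5 mg of an estrogen receptor antagonist once, at the onset of estradiol. These 3 groups and VCD_Vehicle ate no polybrominated diphenyl ethers (PBDEs). VCD_Low_PBDE, VCD_Low_E2 and VCD_Low_E2_P4 were fed PBDE 47, 100 and 153 at 0.05, 0.0028 and 0.0063 mg/kg per day for 20 weeks. VCD_High_PBDE, VCD_High_PBDE_E2 and VCD_High_PBDE_E2_P4 received the same congeners at 1, 0.056 and 0.126 mg/kg per day for 1 week, so the dose and the duration of the PBDE diet cannot be told apart. VCD_Vehicle_NormEnv was a further vehicle group in which the cage plastics may have been a source of PBDEs. VCD and hormone carriers were sesame oil, and groups without PBDE were given food with DMSO. Each of the 12 groups was 1 library, and the number of mice behind a library is not given in the sources used here. The 9 libraries that cross no hormone, E2 and E2 + P4 with no, low and high PBDE allowed tests in which the PBDE levels served as repeats of each hormone level. The PBDE level is a term in the hormone fits within a class. Their p-values rest on variation that mixes changes of the hormone difference between diets with other differences between single libraries.

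The 12 libraries summed to between 41737881 and 109224969 unique molecular identifiers (UMIs), and 46257 of 58620 barcodes were kept after filtering by gene number, UMIs and mitochondrial share. Cells were named by gates on marker genes that hold none of the 10 members, which gave 11567 Fib_0-like cells, 7038 Fib_1-like cells, 3962 Fib_2-like cells and 3889 Fib_3-like cells among the fibroblasts, 6358 immune cells and 140 luminal cells. Fib_0-like cells are the Dpp4+ fibroblasts and the other 3 are subsets of Dpp4- fibroblasts. Every marker had its highest level in the class it defines, in 8 of 8 markers for each fibroblast subset and 6 of 6 for each other class, which the gates on the same markers largely fix. Of 30892 gated fibroblasts, 4436 took no subset, and 1591 (5.15%) lay within 0.05 of the score margin that separates subsets. A further 8605 kept cells were assigned to no class. Fibroblasts without a subset and cells without a class were left out of the tests. Barcodes were shared between libraries in 740 cases, with 95 to 185 barcodes in each pair of the first 5 libraries (Intact, VCD_Vehicle, VCD_E2, VCD_E2_P4 and VCD_Low_PBDE), and 41 of the 140 luminal cells carried such a barcode. Luminal values are therefore given with and without them. Levels are given as CPM, the share of a gene in all UMIs of the summed cells of a class on the usual scale, and they compare classes and libraries for 1 gene but not different genes. Reads at the 3′ end do not separate the splice forms of Fgfr2 or of Hgf.

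Short promoter sequences are shown for the 3 ligands whose levels moved with E2 and whose proximal promoter holds the letters GGTCA, 1 arm of the estrogen response element. The 250 bases before each RefSeq start (GRCm38.p6) were searched on both strands for GGTCA, which reads TGACC on the other strand. The capitals mark these letters, and each window is on the plus strand. The RefSeq start of Fgf10 used here lies inside the longer gene that GENCODE gives and whose position is printed further on.
Fgf7, chr2:126034600-126034629, 46 bases before the start: tgcttccaatgaGGTCAgcaaaggtattta
Hgf, chr5:16553329-16553358, 154 bases before the start: ccgggaaactggGGTCAgtgttcatccctg
Fgf10, chr13:118714570-118714599, 117 bases before the start: cccaccgccgttTGACCccctccccccctt
Fgf10, chr13:118714610-118714639, 77 bases before the start: gcaaatgaggttTGACCagcagaggcagag
The table held 9 promoters for 8 of the 10 members, and 3 of the 9 contained these letters. Among all 32817 promoters, 11563 (35.2%) did, so the share among the members was near that of all genes. GGTCA followed after 3 bases by TGACC occurred in 21 promoters (0.0640%) and in 0 of those of the members. A match is a description of these letters and no evidence of binding.

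The ligands were highest in different fibroblast subsets. Over the 12 libraries, Fib_0-like cells had the highest levels of Fgf2 and Fgf18, Fib_1-like cells of Fgf10, Fib_2-like cells of Hgf, and Fib_3-like cells of Fgf7 and Fgf9. These orders are of the library medians, and for Fgf10 the order of Fib_1-like and Fib_2-like cells did not hold in the 3 libraries without hormone. In the contrast of each subset with the mean of the other 3 (edgeR, 12 libraries with the library as a block), adjusted p-values for the 6 genes in these subsets ran from 1.23e-39 to 1.99e-13. The gates do not use these genes, but most genes differed between the subsets. Of all 13024 genes tested, 68.1% passed the threshold of 0.05 for Fib_0-like cells, against 8 of the 10 members. For the Fib_1-like contrast it was 55.5% against 9 members, for Fib_2-like cells 56.7% against 8, and for Fib_3-like cells 46.4% against 6. All 10 members passed the filter on low counts.

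**Figure D1:**
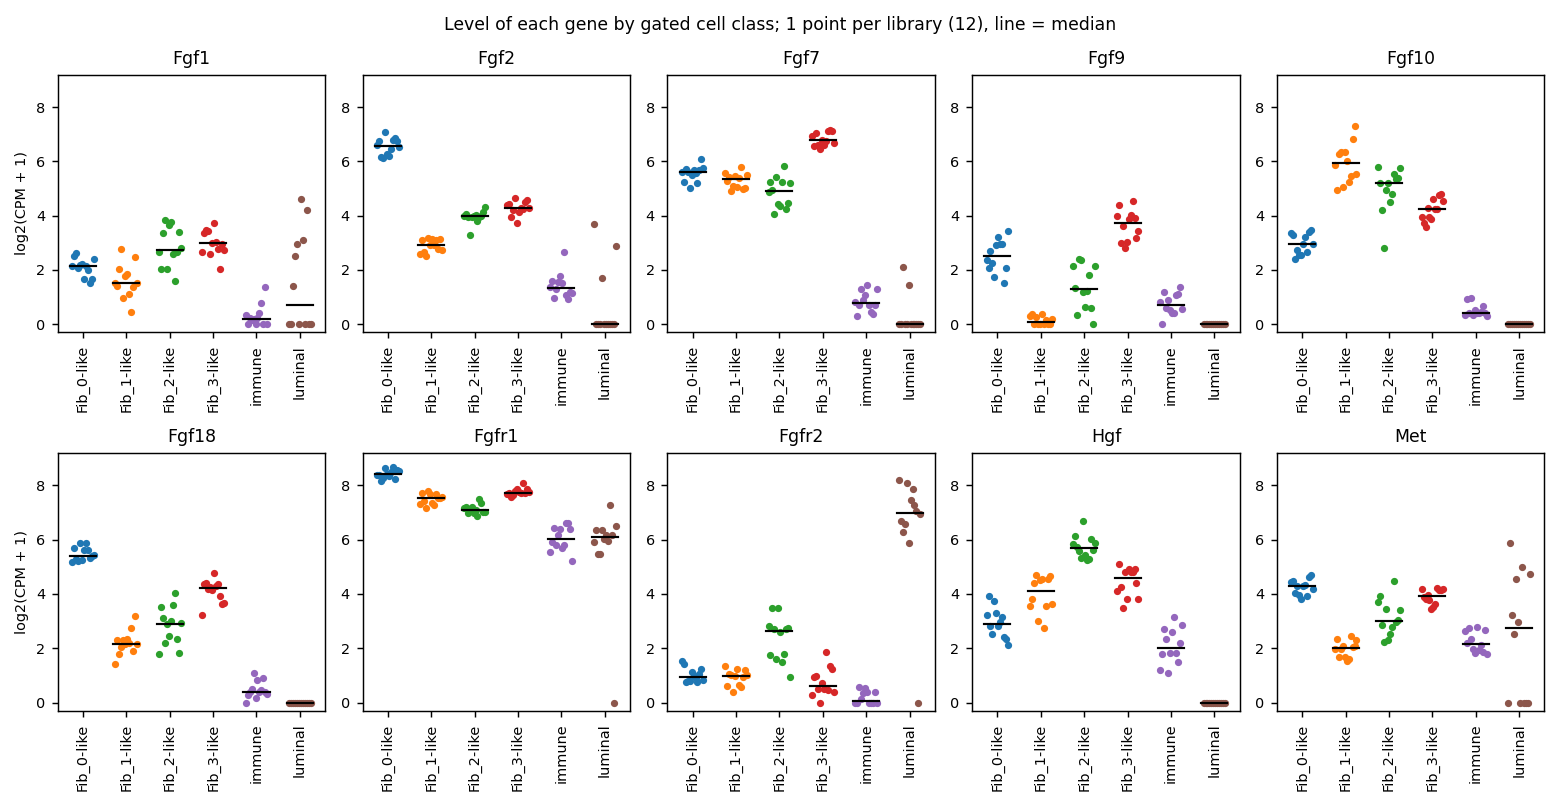
Level of each of the 10 genes, as log2(CPM + 1), in the 4 fibroblast subsets, immune and luminal cells, with 1 point per library (12) and a line at the median. Fgf2 and Fgf18 lie highest in Fib_0-like, Fgf10 in Fib_1-like, Hgf in Fib_2-like, and Fgf7 and Fgf9 in Fib_3-like cells by the median of all 12 libraries, while Fgfr2 is highest in luminal cells.

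Fgf2 (chr3:37348346-37410108, plus strand, GRCm38) encodes a broadly acting FGF that lacks a classical signal peptide. Its level in Fib_0-like cells ranged over the 12 libraries from 68.1 to 135 CPM, with a median of 94.1. The medians were 18.4 CPM in Fib_3-like, 14.7 in Fib_2-like and 6.52 in Fib_1-like cells. The lowest Fib_0-like library lay above the highest library of every other subset, which was 24.1 CPM. The Fib_0-like contrast gave a log2 fold change of 2.98 (SE 0.06, adjusted p = 1.23e-39). At least 1 Fgf2 UMI was present in 70.4% of Fib_0-like cells and 1.76% of immune cells, at median depths of 18607 and 7229 UMIs, and in 35.1% and 0.944% of cells thinned to 5000 UMIs.

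Fgf18 (chr11:33117430-33147400, minus strand), an FGF best known from cartilage and lung, followed the same order. It ranged from 34.8 to 57.6 CPM in Fib_0-like cells, with a median of 41.5, against medians of 17.6 in Fib_3-like, 6.48 in Fib_2-like and 3.504 in Fib_1-like cells. The Fib_0-like libraries did not overlap with those of the other subsets, and the log2 fold change was 2.66 (SE 0.09, adjusted p = 2.14e-30). Fgf9 (chr14:58070547-58112720, plus strand), a ligand that binds FGFR3 and other receptors, was highest in Fib_3-like cells at 5.94 to 22.1 CPM with a median of 12.4. The Fib_0-like median was 4.78 CPM and the Fib_2-like median 1.44, and in Fib_1-like cells Fgf9 lay between 0 and 0.300 CPM. Fgf9 libraries of Fib_3-like and Fib_0-like cells overlapped, while the contrasts gave log2 fold changes of 3.502 (SE 0.24) and 1.81 (SE 0.25).

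Fgf7 (chr2:126034658-126091185, plus strand), keratinocyte growth factor, was measured in all 4 subsets. It was highest in Fib_3-like cells, at 85.7 to 141 CPM with a median of 108 (log2 fold change 1.64, SE 0.10, adjusted p = 1.45e-18). Medians were 48.1 CPM in Fib_0-like, 39.3 in Fib_1-like and 29.2 in Fib_2-like cells, and these 3 ranges overlapped. In the 3 libraries without hormone their order was the reverse, with medians of 36.3, 38.2 and 41.5 CPM. Fgf7 UMIs were found in 66.5% of Fib_3-like cells and 0.959% of immune cells (40.0% and 0.292% after thinning).

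Fgf10 (chr13:118669791-118792115, plus strand), a stromal ligand of the epithelial form of FGFR2, had its highest median in Fib_1-like cells at 60.9 CPM, with libraries from 30.02 to 156. Fib_2-like cells followed with a median of 36.02 CPM, Fib_3-like cells with 17.96 and Fib_0-like cells with 6.79. Ranges of Fib_1-like and Fib_2-like libraries overlapped, and in the 3 libraries without hormone the Fib_2-like median (35.8 CPM) was not below that of Fib_1-like cells (32.3 CPM). The log2 fold change was 2.00 (SE 0.15, adjusted p = 2.09e-16) in Fib_1-like and 0.62 (SE 0.17) in Fib_2-like cells, and Fgf10 was lower than in the other subsets in Fib_0-like cells (-2.25, SE 0.18). Fgf10 UMIs were present in 39.7% of Fib_1-like cells and 0.472% of immune cells (18.8% and 0.247% after thinning).

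Fgf1 (chromosome 18, 38838673 to 38929472, minus strand), an FGF that binds all FGF receptors, was low in every subset, with medians of 6.88 CPM in Fib_3-like, 5.66 in Fib_2-like, 3.45 in Fib_0-like and 1.87 in Fib_1-like cells. The ranges of Fib_3-like and Fib_2-like libraries overlapped almost completely (3.14 to 12.1 and 2.00 to 13.3 CPM). Without hormone the Fib_2-like median (3.08 CPM) was not above that of Fib_0-like cells (3.53 CPM). In the contrast over all libraries Fib_1-like cells lay below the mean of the other subsets (log2 fold change -1.39), but their range (0.353 to 5.87 CPM) overlapped with that of Fib_0-like cells (1.87 to 5.23), and in the 6 E2-treated libraries their median was 2.85 against 2.68 CPM. The smaller difference of Fib_0-like cells (-0.43, SE 0.17, adjusted p = 0.0261) lost its call with DESeq2 (adjusted p = 0.077). Among the small classes, 59 Schwann cells held 22 Fgf1 UMIs, or 72.9 CPM (exact Poisson 95% interval 45.7 to 110).

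Hgf (chr5:16553495-16620152, plus strand) was highest in Fib_2-like cells, where the libraries ranged from 36.8 to 102 CPM with a median of 50.3. The median was 23.6 CPM in Fib_3-like, 16.7 in Fib_1-like and 6.48 in Fib_0-like cells. Without hormone the order of the last 2 did not hold, with medians of 10.8 CPM in Fib_1-like and 12.4 in Fib_0-like cells. All Fib_2-like libraries lay above the highest library of any other subset, 33.0 CPM in Fib_3-like cells. The log2 fold change was 1.92 in Fib_2-like (SE 0.17, adjusted p = 1.99e-13) and -1.82 in Fib_0-like cells (SE 0.20, adjusted p = 3.05e-11). Hgf UMIs were found in 33.0% of Fib_2-like cells and in 0 of 140 luminal cells, at median depths of 13031.5 and 3355 UMIs. After thinning these were 17.8% of 3631 cells and 0 of 61, for which the exact 95% interval reached up to 5.87%.

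Among the receptors, Fgfr1 (chr8:25513654-25575718, plus strand) was found throughout the fibroblasts. Its median was 338 CPM in Fib_0-like, 212 in Fib_3-like, 184 in Fib_1-like and 136 in Fib_2-like cells, and the lowest Fib_0-like library (285 CPM) lay above the highest of the other subsets (268 CPM). The log2 fold change of Fib_0-like cells was 1.00 (SE 0.07, adjusted p = 9.07e-19), and that of Fib_2-like cells was -0.86. Met (chr6:17463800-17573980, plus strand) was also highest in Fib_0-like cells, with a median of 18.5 CPM, followed by 14.1 in Fib_3-like, 6.98 in Fib_2-like and 3.05 in Fib_1-like cells. Met of Fib_0-like cells was higher by a log2 fold change of 1.43 (SE 0.11, adjusted p = 9.98e-17) and that of Fib_3-like cells by 0.94 (SE 0.13), with overlapping ranges.

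Fgfr2 (chr7:130162451-133123350, minus strand) was near 1 CPM or lower in Fib_0-like, Fib_1-like and Fib_3-like cells, with medians of 0.917, 0.984 and 0.532 CPM. Fib_2-like cells had a median of 5.25 CPM, a log2 fold change of 2.31 above the other subsets (SE 0.21, adjusted p = 8.63e-14). In the luminal cells, 340 Fgfr2 UMIs gave 134 CPM (exact Poisson 95% interval 120 to 149), and 62 of 140 cells (44.3%) carried at least 1. Without shared barcodes the luminal level was 158 CPM (136 to 183) in 99 cells. VCD_Low_PBDE alone gave 121 of the 340 UMIs from 16 of the cells, and the 1 luminal cell of VCD_High_PBDE_E2_P4 held 0. Such intervals cover counting error only.

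Only VCD_E2, with 39 cells, held at least 20 luminal cells, so the planned luminal contrast could not be made. With the minimum lowered to 5 cells, chosen after seeing these numbers, Fgfr2 was higher in 139 luminal cells of 11 libraries than in the mean of the fibroblast subsets by a log2 fold change of 6.40 (SE 0.26, adjusted p = 2.92e-27). It was 6.43 (SE 0.30) in the 95 cells of 10 libraries that remained without shared barcodes. Fgfr1 was lower in luminal cells than in fibroblasts (-1.99, SE 0.09), and Met did not pass the threshold (0.40, SE 0.39, adjusted p = 0.377). Of all genes, 64.1% passed in this contrast and 51.0% without shared barcodes. Luminal cells held no UMI of Fgf9, Fgf10, Fgf18 or Hgf, and a count of 3 in their 2536138 UMIs would be 1.18 CPM. The exact Poisson 95% interval of a count of 0, which is wider, reached up to 1.46 CPM there and up to 3.30 CPM without shared barcodes.

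The 88 luminal hormone-sensing-like cells had 139 CPM of Fgfr2 (123 to 156), and 174 CPM without shared barcodes. The markers of this class include the prolactin, estrogen and progesterone receptors, but a cell could enter without them. The 22 luminal alveolar-like cells, whose markers include milk and secretory genes, had 52.6 CPM of Fgfr2 (28.7 to 88.2). This fell to 1 UMI in 17 cells when shared barcodes were left out. Met showed the other order, with 5.73 CPM (2.96 to 10.0) in hormone-sensing-like and 56.3 CPM (31.5 to 92.9) in alveolar-like cells. The alveolar-like value rests on 15 UMIs in 5 of the 22 cells. Without shared barcodes the levels were 9.71 CPM (4.44 to 18.4) and 134 CPM (66.8 to 239.6), the latter from 11 UMIs in 3 of 17 cells. The 12 basal cells held 8 Fgfr2 UMIs (65.3 CPM, 28.2 to 129).

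**Figure D2:**
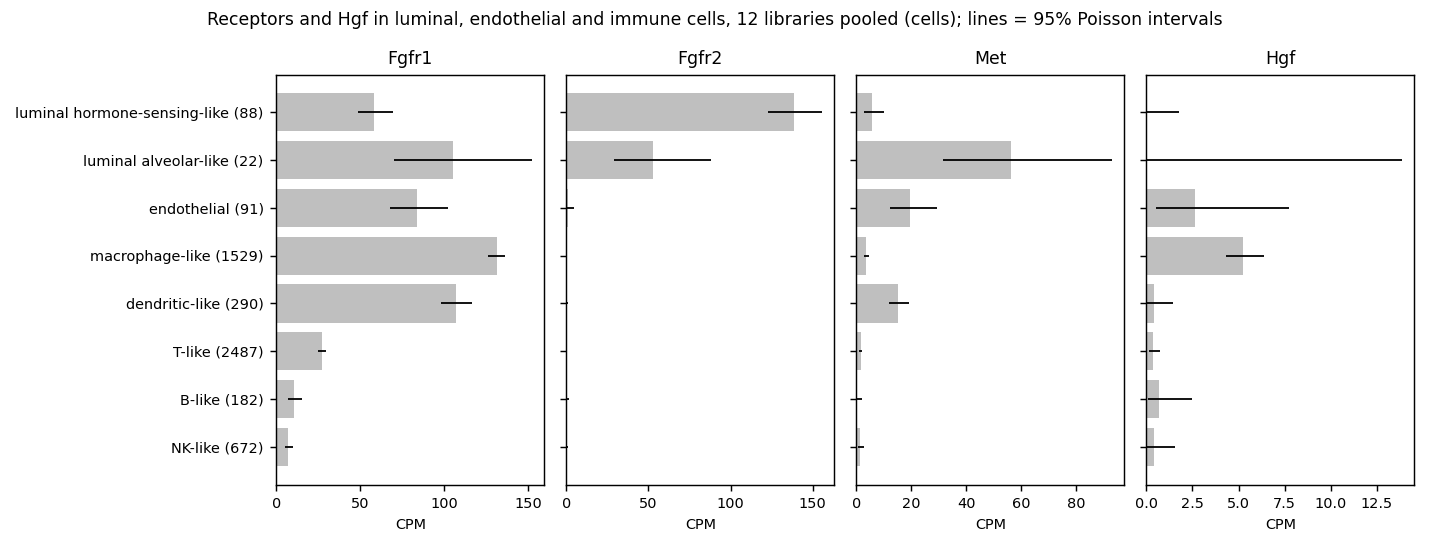
Bars give the level (CPM, axes from 0) of Fgfr1, Fgfr2, Met and Hgf in luminal, endothelial and immune subsets pooled over 12 libraries, with the number of cells beside each name and lines for exact Poisson 95% intervals. Fgfr2 stands at 139 CPM in luminal hormone-sensing-like cells and near 0 in immune subsets, and Fgfr1 at 131 CPM in macrophage-like against 7.19 CPM in NK-like cells.

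In immune cells all 10 members lay below the mean of the fibroblast subsets, with log2 fold changes from -5.65 (Fgf7) to -1.16 (Met), where 89.2% of all genes passed in either direction. For Fgfr1 the difference was -1.66 (SE 0.08), and for Hgf -2.42 (SE 0.27). Macrophage-like cells had 131 CPM of Fgfr1 (126 to 136), dendritic-like cells 107 CPM, T-like cells 27.1 CPM, B-like cells 10.6 CPM and NK-like cells 7.19 CPM. Met was highest in dendritic-like cells at 15.3 CPM (12.1 to 19.1), against 3.67 in macrophage-like and 1.60 in T-like cells. Hgf reached 5.26 CPM (4.31 to 6.36) in macrophage-like cells and 0.376 CPM in T-like cells. It was 11.9 CPM (9.74 to 14.3) in the 1198 immune cells that no subset gate took, from 109 UMIs in 46 of them. These subset values are pooled over libraries and were not tested against each other.

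Changes with E2 were tested within each subset, and whether a change differed between subsets is given further on. The contrast is the mean of the 6 libraries with E2 or E2 + P4 minus the 3 without hormone, with the PBDE level as a term. In Fib_0-like cells Fgf7 rose while Hgf and Fgf18 fell, in Fib_1-like cells Fgf10, Hgf and Fgf1 rose while Fgfr1 fell, and in Fib_2-like cells Fgf1 and Fgfr2 rose while Fgf7 and Met fell. No member passed in Fib_3-like or immune cells. Calls numbered 3 of 10 members in Fib_0-like cells, where 11.2% of 12677 genes passed, 4 of 9 in Fib_1-like cells (10.9% of 11947), 4 of 10 in Fib_2-like cells (33.4% of 11519), 0 of 9 in Fib_3-like cells (3.95% of 11398) and 0 of 4 in immune cells (0.0172% of 11625). The counts of called members in Fib_2-like cells were thus close to the share of all genes. At an unadjusted p under 0.05 there were 2 members in Fib_3-like and 1 in immune cells, and DESeq2 called 0 in both. Median log2 fold changes over the members tested were -0.13 (Fib_0-like), -0.29 (Fib_1-like cells) and -0.50 (Fib_2-like), against -0.004, -0.012 and -0.008 over all genes.

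**Figure D3:**
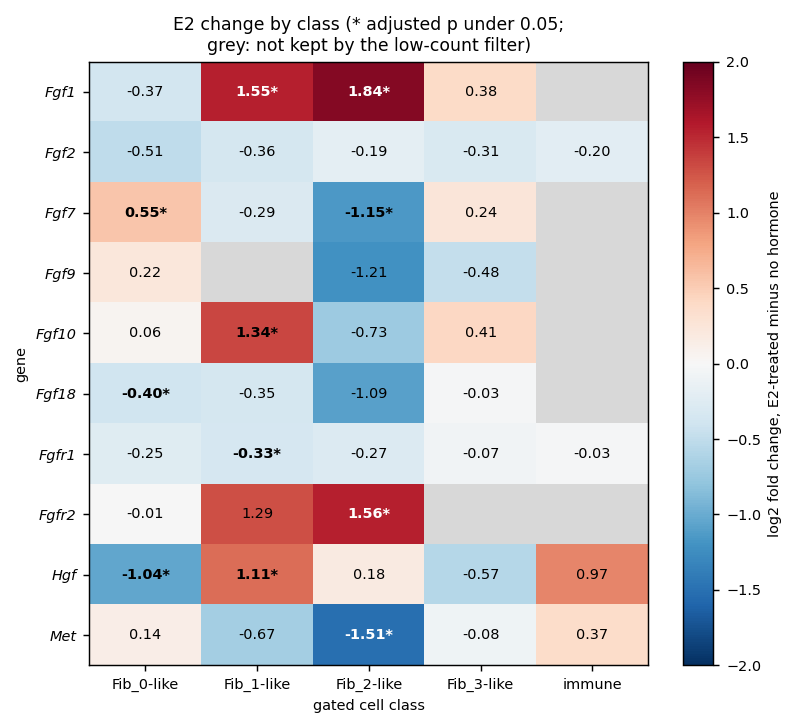
Colour and number give the log2 fold change with E2 (mean of E2 and E2 + P4 minus no hormone) of each member in each fibroblast subset and in immune cells, with a star at adjusted p under 0.05 and grey where the filter on low counts left the gene out. Hgf and Fgf7 each have called changes of opposite sign in 2 subsets.

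Fgf10 in Fib_1-like cells measured 30.02, 32.3 and 43.0 CPM in VCD_Vehicle, VCD_Low_PBDE and VCD_High_PBDE. The 6 E2-treated libraries ranged from 63.8 to 156 CPM with a median of 80.4. All E2-treated libraries lay above all libraries without hormone, and the log2 fold change was 1.34 (SE 0.14, adjusted p = 0.00096). Intact had 57.9 CPM and VCD_Vehicle_NormEnv 36.5 CPM. VCD_E2_ICI had 45.6 CPM (40.7 to 50.9) against 77.2 CPM (71.9 to 82.7) in VCD_E2, 1 library each and so without a test.

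Hgf in Fib_1-like cells measured 13.0, 7.08 and 10.8 CPM in the same 3 libraries without hormone and 20.3 to 24.9 CPM with E2, with a median of 22.4. The groups did not overlap, and Hgf rose by 1.11 on the log2 scale (SE 0.15, adjusted p = 0.00136). Intact, VCD_Vehicle_NormEnv and VCD_E2_ICI had 10.9, 5.65 and 11.5 CPM, all in the range or below that of the libraries without hormone. VCD_E2 had 20.3 CPM (17.7 to 23.3) against 9.13 to 14.3 for the interval of VCD_E2_ICI.

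Hgf in Fib_0-like cells moved the other way. It measured 14.2, 12.4 and 7.90 CPM without hormone and 4.11 to 8.88 CPM with E2, with a median of 5.36. Only VCD_High_PBDE at 7.90 CPM overlapped with an E2-treated library, VCD_Low_E2 at 8.88 CPM, and at each PBDE level the library without hormone was above both with E2. The log2 fold change was -1.04 (SE 0.13, adjusted p = 0.00432). VCD_Vehicle_NormEnv had 6.90 CPM and Intact 8.30 CPM, and with VCD_Vehicle_NormEnv in the fit as a further library without hormone the change was -0.90 (adjusted p = 0.0159). VCD_E2_ICI, with 3.37 CPM (2.33 to 4.70), lay below every other library.

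In Fib_2-like cells, where Hgf is highest, E2 gave no called change. Hgf measured 69.9, 38.9 and 37.9 CPM without hormone and 42.7 to 102 CPM with E2 (log2 fold change 0.18, SE 0.30, adjusted p = 0.689), so a change of this gene in either direction was not resolved there. In Fib_3-like cells it measured 33.0, 27.4 and 27.1 CPM without hormone and 10.2 to 29.4 CPM with E2, and the change of -0.57 (SE 0.39, adjusted p = 0.48) did not pass. In immune cells Hgf stood at 1.12 to 2.59 CPM without hormone and 1.79 to 5.59 CPM with E2 (0.97, SE 0.40, adjusted p = 0.473).

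Fgf7 rose in Fib_0-like cells from 37.1, 31.4 and 36.3 CPM to a range of 43.6 to 67.8 CPM with a median of 50.9. The groups did not overlap, with a log2 fold change of 0.55 (SE 0.09, adjusted p = 0.00886), but the adjusted p was 0.0504 without VCD_Low_PBDE. VCD_Vehicle_NormEnv at 46.5 CPM, Intact at 48.1 CPM and VCD_E2_ICI at 52.6 CPM all lay within the range of the E2-treated libraries. In Fib_2-like cells Fgf7 measured 37.0, 41.5 and 56.4 CPM without hormone and 15.7 to 29.8 CPM with E2, with a median of 19.9. It fell by 1.15 on the log2 scale (SE 0.19, adjusted p = 0.00149), and here VCD_Vehicle_NormEnv (36.3 CPM) and VCD_E2_ICI (35.7 CPM) lay above all E2-treated libraries, while Intact (28.6 CPM) lay within their range. Neither Fib_1-like cells (32.8 to 54.3 CPM without hormone, 29.4 to 42.8 CPM with E2) nor Fib_3-like cells (85.7 to 139 and 95.4 to 141 CPM) showed a called change.

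**Figure D4:**
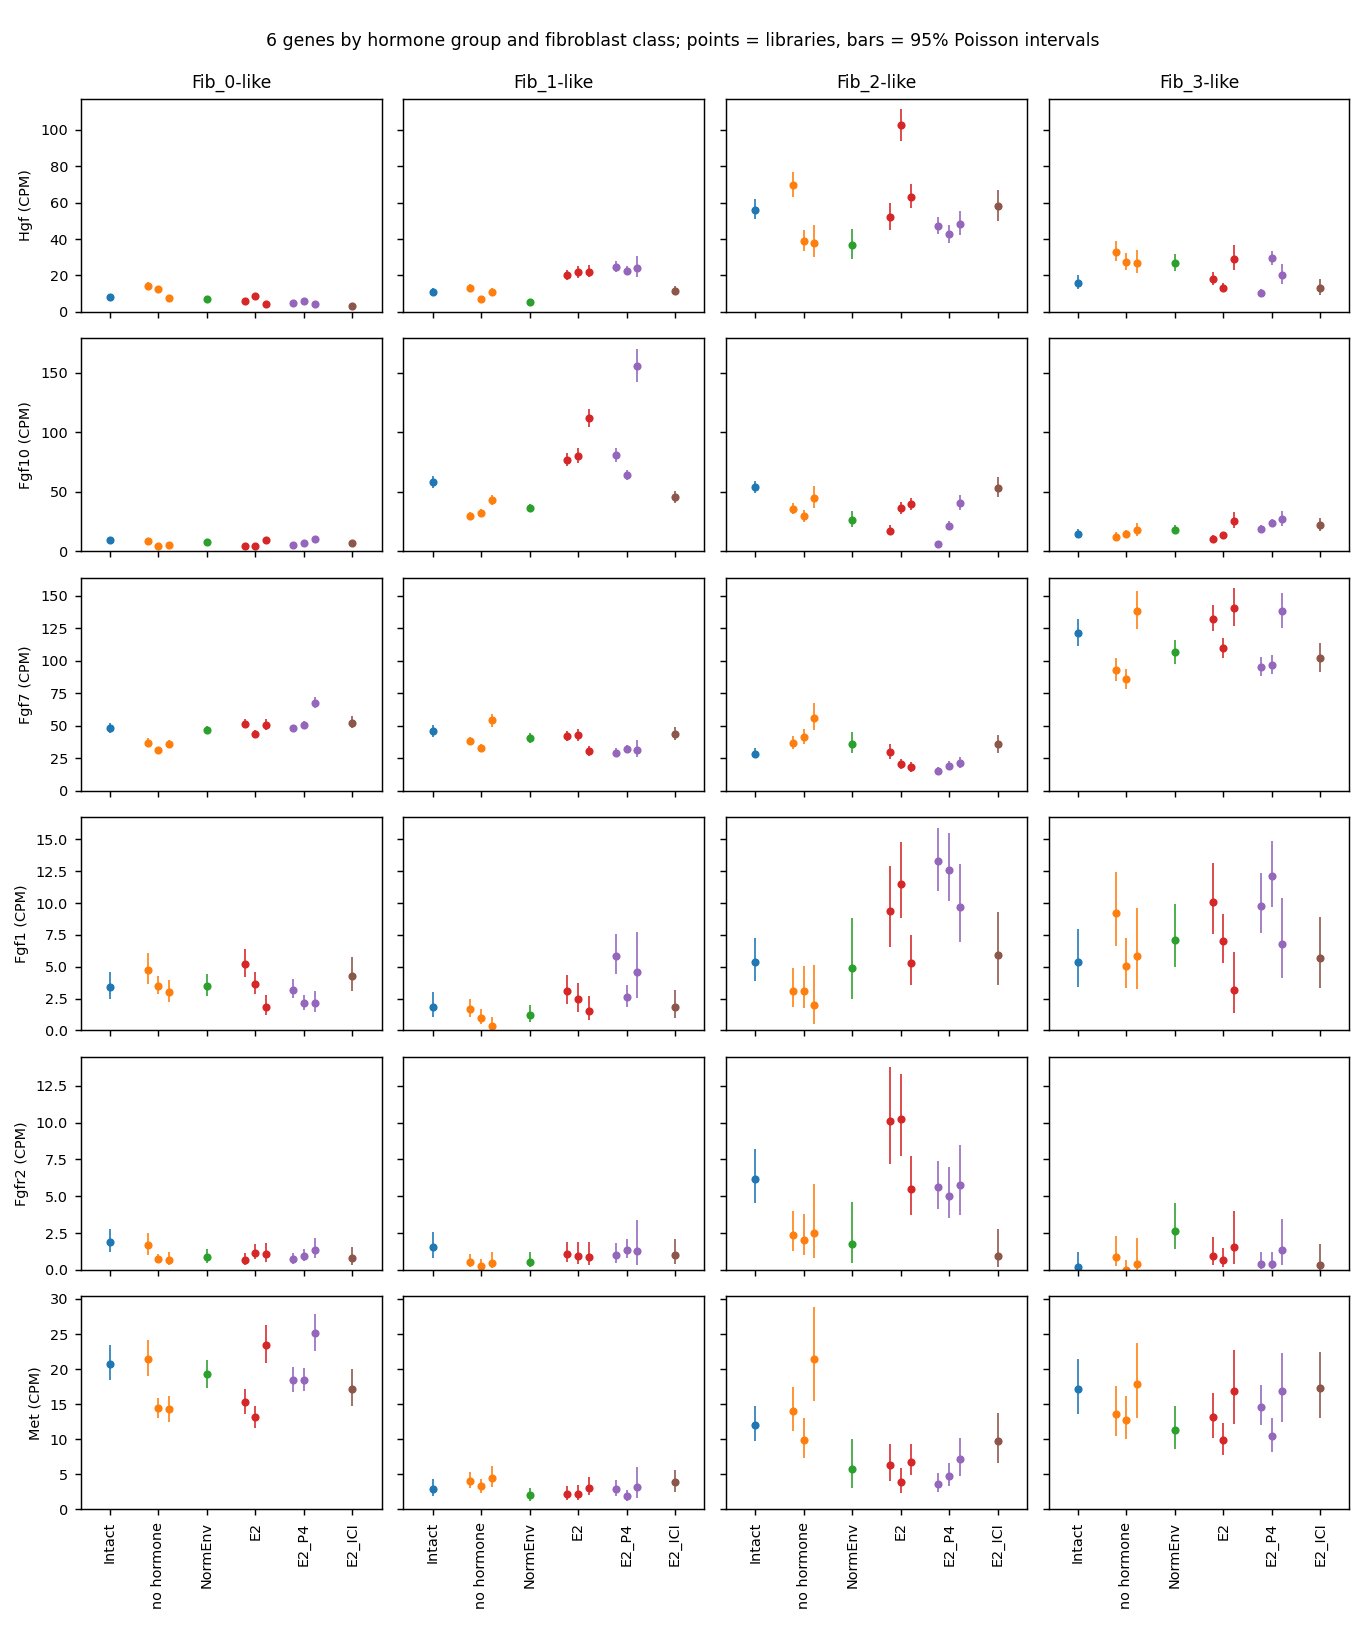
Levels (CPM) of 6 members in the 4 fibroblast subsets, with 1 point per library ordered by hormone group and lines for exact Poisson 95% intervals. In Fib_1-like cells Fgf10 and Hgf lie higher in all 6 E2-treated libraries than in the 3 without hormone, and in Fib_2-like cells Fgf7 and Met lie lower and Fgf1 and Fgfr2 higher.

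Fgf1 rose in both Fib_2-like and Fib_1-like cells. In Fib_2-like cells it measured 3.08, 3.08 and 2.00 CPM without hormone and 5.29 to 13.3 CPM with E2, with a median of 10.6 (log2 fold change 1.84, SE 0.23, adjusted p = 9.1e-05). Groups did not overlap, and VCD_Vehicle_NormEnv, Intact and VCD_E2_ICI lay between them or at the lower end of E2 with 4.94, 5.36 and 5.96 CPM. All 12 libraries together held 486 Fgf1 UMIs in Fib_2-like and 255 in Fib_1-like cells, so the low values rest on few UMIs each. In Fib_1-like cells the values were 1.65, 0.969 and 0.353 CPM without hormone and 1.57 to 5.87 CPM with E2 (1.55, SE 0.34, adjusted p = 0.0165). The groups overlapped at 1.57 and 1.65 CPM, and the call was lost with a score margin of 0.5 between subsets (1.197, adjusted p = 0.08), without VCD_Vehicle (0.0524) and without VCD_E2_P4 (0.0528).

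Fgfr2 in Fib_2-like cells measured 2.40, 2.06 and 2.50 CPM without hormone and 5.04 to 10.2 CPM with E2, with a median of 5.68. The groups did not overlap, and the log2 fold change was 1.56 (SE 0.29, adjusted p = 0.00156). Fib_2-like cells of all 12 libraries held 320 Fgfr2 UMIs, so the values without hormone rest on few UMIs each. The lack of overlap does not take counting error into account. VCD_E2_ICI had 0.941 CPM (0.194 to 2.75) against 10.1 CPM (7.22 to 13.8) in VCD_E2, VCD_Vehicle_NormEnv had 1.80 CPM and Intact 6.15 CPM. In Fib_1-like cells Fgfr2 stood at 0.298 to 0.524 CPM without hormone and 0.913 to 1.34 CPM with E2, and the change of 1.29 (SE 0.39, adjusted p = 0.0588) missed the threshold.

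Met in Fib_2-like cells measured 14.0, 9.87 and 21.5 CPM without hormone and 3.66 to 7.13 CPM with E2, with a median of 5.54. It fell by 1.51 on the log2 scale (SE 0.20, adjusted p = 0.000126) with no overlap of the groups. VCD_E2_ICI had 9.72 CPM (6.60 to 13.8) against 6.32 CPM (4.09 to 9.32) in VCD_E2, and VCD_Vehicle_NormEnv with 5.83 CPM lay in the range of the E2-treated libraries. With VCD_Vehicle_NormEnv in the fit the change was -1.39 (adjusted p = 0.000401). Met in Fib_0-like cells, where it is highest, gave 0.14 (SE 0.19, adjusted p = 0.681).

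Smaller changes were called for Fgf18 and Fgfr1. Fgf18 in Fib_0-like cells went from 50.6, 57.4 and 48.7 CPM to 36.2 to 48.8 CPM with a median of 38.9 (log2 fold change -0.40, SE 0.08, adjusted p = 0.0158). The groups overlapped at 48.7 and 48.8 CPM, and the adjusted p was 0.0507 without VCD_Vehicle and 0.103 without VCD_Low_PBDE. Fgfr1 in Fib_1-like cells went from 212, 218 and 206 CPM to 142 to 206 CPM (-0.33, SE 0.08, adjusted p = 0.0287), a call that was lost in 9 of 21 alternative fits, with adjusted p up to 0.174. Fgfr1 was also lower with E2 in Fib_0-like (-0.25, adjusted p = 0.0865) and Fib_2-like cells (-0.27, adjusted p = 0.0572), where neither passed. Fgf2 in Fib_0-like cells measured 106, 135 and 108 CPM without hormone and 68.1 to 115 CPM with E2, and its change of -0.51 (SE 0.16, adjusted p = 0.0871) missed the threshold. Fgf9 in Fib_3-like cells, where it is highest, lay at 5.94 to 22.1 CPM without hormone and 7.035 to 14.1 CPM with E2 (-0.48, SE 0.42, adjusted p = 0.592). It had no called change in Fib_0-like (0.22, adjusted p = 0.84) or Fib_2-like cells (-1.21, adjusted p = 0.35) and was too low to test in Fib_1-like cells.

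The libraries carry either of 2 codes in their file names, and E2-treated and hormone-free libraries occur in both (2 and 2 with the first code, 4 and 1 with the second). At low PBDE the library without hormone has the first code and those with E2 the second. Code and E2 therefore cannot be told apart at that PBDE level. VCD_High_PBDE is the only library without hormone in the second code. The difference of mean log2(CPM + 1) had the same sign within both codes for Hgf in Fib_0-like (-1.17 and -0.44) and Fib_1-like cells (1.14 and 1.00), Fgf10 in Fib_1-like cells (1.31 and 1.16) and Fgf7 in Fib_0-like (0.53 and 0.53) and Fib_2-like cells (-0.83 and -1.47). It did so too for Fgf1 (1.57 and 1.79), Fgfr2 (1.41 and 1.08) and Met (-1.13 and -1.79) in Fib_2-like cells. For all of these but Hgf in Fib_0-like cells the hormone groups did not overlap. Any split of the libraries then gives the same sign, so the signs are no test of the code. With the code as a term in the fit, 2 of the 11 calls were lost, Fgf18 in Fib_0-like cells (-0.35, adjusted p = 0.105) and Fgfr1 in Fib_1-like cells (-0.34, adjusted p = 0.102).

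The markers that define the subsets moved with E2 as well: 5 of the 8 Fib_2-like markers passed in Fib_2-like cells (Mfap4 1.39, Enpp2 -1.53, Penk -1.80, Tnc -0.64 and Scg3 -0.90), 3 of 8 for the Fib_1-like gate, 2 of 8 for Fib_0-like and 0 of 8 for Fib_3-like cells. When cells were gated again without these 10 markers, all 11 called changes were called again in the same direction. Markers whose change missed the threshold stayed in those gates, among them Cd36 (2.07, adjusted p = 0.110) and Lpl (0.38, 0.0564) for Fib_1-like cells. Levels of markers of other cell types were compared as sums over lists of 6. In Fib_2-like cells the pericyte list summed to 48.4 to 52.6 CPM without hormone and 11.9 to 21.6 CPM with E2, mostly from Abcc9 (33.0 to 37.8 and 5.18 to 13.8 CPM). In Fib_1-like cells this list summed to 47.4 to 60.04 and 26.5 to 46.7 CPM, mostly from Notch3. Cspg4 was at 0 by the gate, and Rgs5 and Higd1b were below 3 CPM in all of these sums. The Schwann list in Fib_2-like cells summed to 17.1 to 20.1 and 8.51 to 15.1 CPM, with Sox10 at 0 to 0.17 CPM. The sums of the luminal, basal, immune, endothelial and skeletal muscle lists overlapped between the groups in both subsets (Acta2 of the basal list in Fib_2-like cells lay at 1.03 to 1.498 and 3.35 to 32.8 CPM, and Kdr of the endothelial list at 6.37 to 7.49 and 0.840 to 4.28 CPM), and all lists overlapped in Fib_0-like cells. The skeletal muscle list reached 188 CPM in Fib_1-like cells with E2, against up to 7.05 CPM without hormone. The part of these shifts in the changes of the members was not tested.

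Adding P4 to E2 gave no called member in any class. This contrast compares the 3 libraries with E2 + P4 with the 3 with E2 alone, and of all genes 0.103% passed for Fib_0-like cells, 0.544% for Fib_1-like cells, 2.63% for Fib_2-like cells, 0.149% for Fib_3-like cells and 0.00860% for immune cells. At an unadjusted p under 0.05 there were 2 members in each fibroblast subset and 1 in immune cells, and DESeq2 called 0. They were Fgf7 and Fgf18 (Fib_0-like), Fgfr1 and Fgf18 (Fib_1-like), Fgfr2 and Fgf1 (Fib_2-like), Fgf10 and Fgf1 (Fib_3-like) and Fgfr1 (immune). The log2 fold changes of Fgf2, Fgf9, Hgf and Met lay between -0.65 (Hgf in Fib_2-like cells, SE 0.33) and 1.09 (Fgf9 in Fib_2-like cells, SE 1.16). The smallest adjusted p of a member was that of Fgfr2 in Fib_2-like cells (log2 fold change -0.65, SE 0.25, adjusted p = 0.219), and the smallest unadjusted p that of Fgf10 in Fib_3-like cells (0.63, SE 0.16, adjusted p = 0.259). Fgf10 there measured 10.8, 13.6 and 25.9 CPM in VCD_E2, VCD_Low_E2 and VCD_High_PBDE_E2 and 18.6, 23.8 and 27.0 CPM in the libraries with P4 at the same PBDE levels.

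The E2 change of each subset was compared with the mean E2 change of the other 3 in 1 fit. Members passed in 12 of these comparisons, 5 in Fib_0-like cells (17.2% of all genes), 2 in Fib_1-like cells (3.20%), 4 in Fib_2-like cells (28.1%) and 1 in Fib_3-like cells (3.89%). For Hgf the E2 change of Fib_1-like cells minus that of the others was 1.60 on the log2 scale (SE 0.32, adjusted p = 0.00837), and that of Fib_0-like cells -1.28 (SE 0.31, adjusted p = 0.00707). Without VCD_Low_PBDE these had adjusted p = 0.106 and 0.108, and Hgf in Fib_1-like cells also missed the threshold without VCD_Vehicle (0.0621). For Fgf7 the difference was 0.95 in Fib_0-like (SE 0.14, adjusted p = 4.15e-05) and -1.34 in Fib_2-like cells (SE 0.16, adjusted p = 9.32e-07). Fgf10 rose more in Fib_1-like cells than in the others (1.39, SE 0.29, adjusted p = 0.0102), a call that was lost without VCD_Vehicle (0.0721) or VCD_Low_PBDE (0.0837). Met fell more in Fib_2-like cells (-1.29, SE 0.21, adjusted p = 2.56e-05). Fgf1 rose more in Fib_2-like cells (1.35, SE 0.31, adjusted p = 0.00138), a call that was lost with a score margin of 0 or without VCD_Vehicle. The remaining changes called within a subset did not pass against the rest. Their differences were 0.12 for Fgf18 in Fib_0-like cells (adjusted p = 0.763), and -0.14 for Fgfr1 (0.561) and 0.91 for Fgf1 (0.127) in Fib_1-like cells. For Fgfr2 in Fib_2-like cells it was 0.81 (0.209). Fgf2 and Fgf9 passed in none of these comparisons.

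The genes around these ligands and receptors were followed in lists, chosen with earlier results of these data known. Of 22 heparan sulfate proteoglycans and their enzymes, which hold FGFs at the cell surface, 4 rose and 4 fell with E2 in Fib_0-like cells. In Fib_1-like cells 3 of 21 rose and 2 fell, in Fib_2-like cells 7 of 21 rose and 4 fell, and 2 of 21 rose in the Fib_3-like subset. These were 36.4%, 23.8%, 52.4% and 9.52% of the list, where 11.2%, 10.9%, 33.4% and 3.95% of all genes passed. The list's median log2 fold change was 0.07, 0.09, 0.23 and 0.10, against -0.012 to -0.004 for all genes. Sdc3, a syndecan, had the largest called change in Fib_0-like cells (2.13, SE 0.24), and Glce, an enzyme of heparan sulfate synthesis, fell there by 0.70. Sdc1 (syndecan-1) rose by 1.049 (SE 0.23) in Fib_0-like, 2.67 (SE 0.18) in Fib_1-like and 2.84 (SE 0.13) in Fib_2-like cells. Gpc1, a glypican, rose by 0.82 (SE 0.12) in Fib_1-like and 2.23 (SE 0.23) in Fib_2-like cells, while Gpc6 fell by 0.40 and 1.04. Agrn (agrin) rose in Fib_0-like, Fib_2-like and Fib_3-like cells by 0.79, 1.03 and 0.59. With P4 added to E2, Sdc4 (-1.14) and Gpc6 (-0.65) fell in Fib_2-like cells, 9.52% of the list against 2.63% of all genes. In the comparison of E2 changes between subsets 40.9%, 4.55%, 54.5% and 0% of the 22 genes passed from Fib_0-like to Fib_3-like cells, where 17.2%, 3.20%, 28.1% and 3.89% of all genes did.

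Of 10 targets and feedback inhibitors of ERK signalling, 4 (40.0%) rose with E2 in Fib_2-like cells and 0 fell, where 33.4% of all genes passed in either direction. They were Etv4 (3.56, SE 0.34) and Etv5 (0.97, SE 0.14), transcription factors, and Dusp6 (1.56, SE 0.22) and Spry1 (0.49, SE 0.13), inhibitors of the cascade. Etv4 was the single gene of this list that passed in Fib_1-like cells (1.54, SE 0.23), where 10.9% of all genes did. None of 9 passed in Fib_0-like, 10 in Fib_3-like and 7 in immune cells, against 11.2%, 3.95% and 0.0172% of all genes, so these low counts are no result about the list. The E2 change of Fib_2-like cells differed from that of the other subsets for 7 of the 10 (70.0%, against 28.1% of all genes), with 6 differences above 0 and 1 below, led by Etv4 (2.51, SE 0.53) and Dusp6 (1.10, SE 0.30). It lay below the others in Fib_3-like cells for Etv4 (-2.76) and Etv5 (-0.99), 20.0% of the list against 3.89% of all genes. Etv4 in Fib_1-like cells also rose with P4 (1.51, SE 0.23, adjusted p = 0.0174). Between the subsets, 7 of the 10 were higher in Fib_2-like cells, led by Etv4 (3.06) and Spry1 (1.96), and 7 of 10 were lower in Fib_0-like cells, led by Etv4 (-4.09) and Spry1 (-4.01). In either direction 8 and 10 of the list passed in these contrasts, in which 56.7% and 68.1% of all genes did.

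Among 9 adaptors of FGF receptors and MET, 3 (33.3%, against 33.4% of all genes) rose with E2 in Fib_2-like cells (Cbl, Shc1 and Ptpn11, by 0.41, 0.27 and 0.27). In Fib_0-like cells Shc1 rose by 0.40 and Ptpn11 fell by 0.29 (22.2% of the list, against 11.2% of all genes). Of 16 other FGF genes, not all of which encode secreted ligands (Fgf11 does not), most were too low to test, with 2 to 4 tested per subset. Fgf21 (2.50, SE 0.61) and Fgf16 (1.39, SE 0.28) rose in Fib_2-like cells, Fgf11 fell by 0.89 in Fib_0-like cells and Fgf23 by 2.04 in Fib_3-like cells. These were 2 of 4, 1 of 3 and 1 of 2 tested genes, where 33.4%, 11.2% and 3.95% of all genes passed. Of the other receptors and coreceptors, Flrt2 rose by 0.49 in Fib_0-like cells and Flrt3 fell by 0.68 in Fib_2-like cells. Of the genes that activate or inhibit HGF and of the related macrophage-stimulating protein system, 1 of 5 tested genes passed with E2 in Fib_0-like cells (Mst1r, -0.34, SE 0.09), where 11.2% of all genes did. None of the 4, 3, 3 and 7 genes tested for Fib_1-like, Fib_2-like, Fib_3-like and immune cells passed. Of all genes 10.9%, 33.4%, 3.95% and 0.0172% did, so with so few tested these counts are no result about the list. Of this list 4 of 5 tested genes (80.0%, against 68.1% of all genes in either direction) were higher in Fib_0-like cells than in the other subsets, with Hpn (hepsin, 2.95), Plau (urokinase, 1.11), Mst1r (1.03) and Plat (0.80), all proteases that can act on HGF or related precursors except the receptor Mst1r.

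The genes whose levels were most like those of the ligands were sought by Pearson's r of log2(CPM + 1) over the 48 sums of 4 fibroblast subsets in 12 libraries, which share libraries and so are not independent. For Fgf2 they were Slco3a1 (0.97) and the gate markers Dpp4 and Pi16 (both 0.97), and for Fgf18 Ildr2 (0.95), Plekhb2 (0.94) and Atp6v0e2 (0.94). For Fgf10 they were Mgst1 (0.93), Frmd4b (0.92) and Prkar2b (0.90), for Fgf7 Ghr (0.92), Tnfsf13b (0.90) and Ltbp4 (0.90), and for Hgf Angpt2 (0.91), Pdzrn3 (0.90) and Gcnt2 (0.89). These are descriptions of 13024 genes without a test.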

How the data were processed

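Cells of the fourth mammary glands of 12 groups of mice, 1 library each, had been profiled with Chromium v3 chemistry. Raw UMI counts of each gene in each barcode, from Cell Ranger 3.1.0 on mm10 per the labels, had been deposited without normalization. The instrument is a HiSeq in the labels but a NovaSeq in the methods. Groups were taken from the treatment label.

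Barcodes under 500 genes or 1000 UMIs, or over 5% mitochondrial UMIs, were left out. A cell belonged to a non-fibroblast class with at least 4 of its 6 markers, more than of any other class, and at most 2 of 6 fibroblast markers. Fibroblasts lacked UMIs of Cspg4, Pecam1, Cd52, Ptprc, Krt14 and Epcam, had at least 3 fibroblast markers, and took the subset whose 8 markers had the highest mean z-score, if at least 0 and 0.25 above the next. Luminal and immune subsets needed at least 2 of 6 markers, or 2 of 5 for T-like cells. No clustering was used, so subsets can differ from those of the study. No doublet caller was applied in the main analysis, and an alternative removed the barcodes with the highest Scrublet scores (0.8% per 1000 barcodes, scanpy 1.11.5). Counts were summed per library and class, leaving out sums of fewer than 20 cells. They were tested with edgeR 4.0.16 in R 4.3.3 (robust quasi-likelihood test, TMM normalization, filterByExpr, Benjamini-Hochberg adjustment over all genes kept, threshold 0.05). The hormone fits held 9 libraries with hormone and PBDE level as terms (4 residual degrees of freedom). The class contrasts held 60 sums and the between-class fit 36, with the library as a block. Intact, VCD_Vehicle_NormEnv and VCD_E2_ICI are given as values. Intervals are exact Poisson ones at 95%, and shares were also computed after thinning cells to 5000 UMIs, leaving out shallower cells. DESeq2 1.42.0 was an alternative.

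The members, lists, gates and tests were chosen with earlier results of these data known. The rule for named genes was the 10 members in every comparison (uncalled ones in part by ranges or counts), of each other list at most the 4 called genes with the largest change, and as similar genes the 3 with the highest r. All 10 gene positions are from GENCODE M21 (GRCm38). In simulated data with 200 genes changed by 1 on the log2 scale, the E2 fit recovered 77% of them for Fib_0-like cells (12677 genes), 80% for Fib_1-like cells (11947), 82.5% for Fib_2-like cells (11519), 79.5% for Fib_3-like cells (11398) and 70% for immune cells (11625), the Fib_2-like class contrast 92% (13024) and the between-class fit 67.5% (12958). Between 3.57% and 11.5% of the calls in these simulations were genes that had not been changed.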

Additional observations from a re-analysis of the deposited data

Results flagged for a closer look

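The E2 change differed between fibroblast subsets for 6 of the 10 members in 12 comparisons of 1 subset with the mean of the other 3, each by the test of the difference itself (edgeR, adjusted p under 0.05). From Fib_0-like to Fib_3-like cells 5, 2, 4 and 1 of 10 members passed, where 17.2%, 3.20%, 28.1% and 3.89% of all genes did. The share of all genes that passed in at least 1 of these comparisons is not given, so the 6 of 10 cannot be set against it. In Fib_0-like cells the difference was 0.954 for Fgf7, 0.886 for Met, -1.28 for Hgf, -1.31 for Fgfr2 (SE 0.42, adjusted p = 0.0292) and -1.613 for Fgf1 (SE 0.24, adjusted p = 3.42e-05). In Fib_1-like cells it was 1.598 for Hgf and 1.391 for Fgf10. In Fib_2-like cells it was 1.346 for Fgf1 (SE 0.31, adjusted p = 0.00138), -1.239 for Fgf10 (SE 0.32, adjusted p = 0.00687), -1.292 for Met and -1.345 for Fgf7. In Fib_3-like cells it was 0.524 for Fgf7 (SE 0.14, adjusted p = 0.0361). All values are on the log2 scale. Within their own subset Fgfr2 (-0.005, adjusted p = 0.995), Fgf1 (-0.37, 0.214) and Met (0.14, 0.681) in Fib_0-like, Fgf10 in Fib_2-like (-0.73, 0.238) and Fgf7 in Fib_3-like cells (0.24, 0.17) had no called change with E2. Since each subset is compared with the others, the 12 differences are not independent of each other. Markers of the gates had called changes with E2 in 3 of the 4 subsets, and the differences were recomputed with gates that leave out these called markers only. Fgf10 in Fib_2-like cells then gave -0.33 (adjusted p = 0.266) and lost its call. Fgfr2 in Fib_0-like and Fgf7 in Fib_3-like cells lost theirs in 6 and 9 of 19 alternatives, and Hgf in Fib_1-like cells in 3. Fgf10 in Fib_1-like and Fgf1 in Fib_2-like cells lost theirs in 2 each, and Hgf in Fib_0-like cells in 1. The difference of Fgf1 in Fib_2-like cells was as low as 0.727 in these alternatives.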

How the results depend on the processing

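None of the called changes of the members turned its direction under any alternative. Of 231 values of the 11 called E2 changes within a subset under 21 alternatives, 215 stayed past the threshold and 16 did not. Hgf in Fib_0-like and Fib_1-like, Fgf10 in Fib_1-like, and Fgf7, Met, Fgfr2 and Fgf1 in Fib_2-like cells were called in every one of them. Of 228 values of the 12 differences between subsets, 204 stayed past the threshold, and of 902 values of the class contrasts 894 did. The number of members called for E2 in Fib_1-like cells (4) was 2 with a score margin of 0.5. The number called between subsets for Fib_3-like cells (1) was 0 with no filter on low counts, 0 with a margin of 0 and 2 with a mitochondrial limit of 10%, and for Fib_1-like cells (2) it was 1 when the markers that changed with E2 were left out of the gates, an alternative chosen after seeing the data. In that setting the differences of Fgfr2 in Fib_0-like (adjusted p = 0.0885), Hgf in Fib_1-like (0.0933), Fgf10 in Fib_2-like (-0.33, 0.266) and Fgf7 in Fib_3-like cells (0.118) were lost. The cause was not tested. Leaving out 1 library at a time gave 1 to 4 called members for E2 in Fib_0-like and 2 to 4 in Fib_1-like cells, 3 to 6, 0 to 3 and 0 to 1 between subsets for Fib_0-like, Fib_1-like and Fib_3-like cells, and 0 to 1 for P4 in Fib_3-like cells, where the 1 call came without VCD_High_PBDE_E2. Between subsets, Fgfr2 in Fib_0-like and Fgf7 in Fib_3-like cells were lost in 6 and 9 of 19 alternatives, and Fgf1 in Fib_2-like cells with a margin of 0 (adjusted p = 0.0644) and without VCD_Vehicle (0.0747).

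Each hormone level rests on 3 libraries that differ in PBDE diet. The luminal contrast with at least 20 cells per sum was not run, since 1 library held that many. Genes of a few CPM or less, as Fgfr2 in most fibroblasts, and Fgfr2 and Fgf1 in Fib_2-like cells without hormone, rest on few UMIs per library. The hormone fit compares libraries within a PBDE level, which is a term in it. Beyond that, no paired analysis was possible because each group is 1 library, so the labels hold no further replicates to pair.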
